A study of Mus musculus with 2 samples.

Results

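Mature microRNAs (miRNAs) of the genes Mir574, Mir328, Mir326 and Mir207 were examined in exosomes from the blood of tumour-bearing mice. The 6 array miRNAs were mmu-miR-574-3p, mmu-miR-574-5p, mmu-miR-328-3p, mmu-miR-328-5p, mmu-miR-326-3p and mmu-miR-207, out of 1881 mouse miRNAs on the array. They were taken by name from the array design and are written without the species prefix below. They had been picked because most of them were relatively bright on one of the arrays compared here, and because the study names most of them for stromal exosomes in hypoxia. The values that follow therefore describe these miRNAs and test nothing.

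Lewis lung carcinoma (LLC) cells are an established line from a mouse lung tumour, and BMSCs are mesenchymal stem cells from bone marrow, a stromal cell that can enter tumours. In the LLC group, C57BL/6 mice carried subcutaneous tumours grown from LLC cells that expressed luciferase. For the MSC+LLC group, mouse BMSCs were injected together with the same cells. Blood was taken at a mean tumour volume of 200 mm3, and exosomes, the small vesicles that cells release, were isolated from serum by the labels and from plasma by the methods text. The methods give the mice as females aged 6 weeks, and both groups carried the luciferase line. Each group was measured on 1 array, with 100 ng of RNA, and how many mice stood behind an array was not stated. No test between the groups was possible. Both arrays lay on the same slide, so array position and group cannot be told apart. The exosomes in blood may come from host, tumour or injected cells, and these sources cannot be told apart.

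A miRNA is cut from a hairpin in its primary transcript, and either side of the hairpin can become a mature strand, named 5p or 3p. Bases 2 to 8 of the mature strand, the seed, do most of the pairing with target mRNAs. Strands with equal seeds share many predicted targets. The miR-574 hairpin is built from a GU-rich 5p side and a CA-rich 3p side. Both strands are known to bind RNA-binding proteins directly, miR-574-5p the GU-binding protein CUGBP1 and miR-574-3p the CA-binding protein hnRNP L. miR-328-3p is known as a regulator of the drug transporter ABCG2 and as a decoy for hnRNP E2. miR-326-3p is known from T helper cells, where it acts on the transcription factor Ets-1.

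The genes are spread over the mouse genome. In the RefSeq table of GRCm38.p6, Mir574 lies at chr5:64970318-64970395, inside the spans of Fam114a1 and Tlr6. Mir328 lies at chr8:105308364-105308460 inside Elmo3, Mir326 at chr7:99552269-99552363 inside Arrb1, and Mir207 at chr4:40722917-40722995 inside Dnaja1. Whether exons or introns hold them was not read from this table. The array files name another build, mm9, and hold no coordinates for these rows.

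The mature sequences are shown because their base makeup recurs in the results. RefSeq (GRCm38.p6) held 4 of the 6 strands. They are written from 5′ to 3′ with the seed in capitals, and no seed is shared among them.
miR-574-3p: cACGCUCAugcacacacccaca
miR-574-5p: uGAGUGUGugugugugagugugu
miR-326-3p: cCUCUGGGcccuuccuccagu
miR-207: gCUUCUCCuggcucuccucccuc
The miR-574-3p strand was 50% C with a run of alternating C and A, and the miR-574-5p strand held no C and alternated G and U. miR-326-3p was 76.2% and miR-207 87.0% C or U. miR-207 held no A.

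The hairpin of miR-574 is given to show how its strands face each other, with both mature strands in capitals, 5p first. It lies on the plus strand of the position above.
miR-574 hairpin: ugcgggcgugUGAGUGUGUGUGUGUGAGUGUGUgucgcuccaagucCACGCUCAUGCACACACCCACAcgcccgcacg

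Signal was read as spot intensity, in the scanner's linear units after local background was subtracted. Each array carried 4415 miRNA probes, each printed as several spots, and a probe counted as detected if over 50% of its spots stood well above background. This gave 502 detected miRNAs for LLC and 258 for MSC+LLC, of which 240 were measured on both arrays. The MSC+LLC array was far dimmer. Over the probes that both arrays detected, the 75th percentile was 2883 units for LLC and 250.3 units for MSC+LLC. Ratios called scaled were taken after each array was divided by that percentile, which moved every log2 ratio of MSC+LLC over LLC up by 3.53. Without it the median log2 ratio of the 240 miRNAs was -3.38, and with it 0.15. Hybridization spike-ins differed by a log2 ratio of 0.038 between the arrays and labelling spike-ins by -1.32, with 4 probes each.

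All 6 miRNAs were detected on each array. After scaling, 5 of the 6 were at least 2-fold higher on the MSC+LLC array, where 27.1% of all 240 measured miRNAs were. The miRNAs were chosen on this contrast, so nothing is read from that count. The median scaled log2 ratio of the 6 was 3.25, and it was -0.28 without scaling. In descending order the scaled log2 ratios were 5.56 for miR-574-3p, 4.12 for miR-207, 3.68 for miR-328-3p, 2.82 for miR-574-5p, 1.70 for miR-326-3p and 0.082 for miR-328-5p. The order ran across the hairpin arms, with the 3p strand above the 5p strand for miR-574 and miR-328, the hairpins with both arms measured.

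Neighbours in this order were compared with the spread of the spots, which is technical and holds nothing of the spread between mice. miR-574-3p lay above miR-207 by 1.44 on the log2 scale (combined spot SD 0.42), and miR-328-3p above miR-574-5p by 0.86 (SD 0.38). miR-574-5p lay above miR-326-3p by 1.12 (SD 0.23), and miR-326-3p above miR-328-5p by 1.62 (SD 0.32). The gap between miR-207 and miR-328-3p was 0.44 with a combined spot SD of 0.49, so these neighbours did not differ beyond the spot spread.

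The 3p strand of miR-574 was brighter on the dim MSC+LLC array even before scaling. Its 4 probes are counted here in the order of their MSC+LLC intensity. Probe 1 gave 3.83 ± 3.85 units (SD over 8 spots, -1.09 to 9.17) on the LLC array, where no spot was well above background, and 118 ± 13 units (SD over 8 spots, 95.0 to 134) on the MSC+LLC array. Probe 2 gave 27.7 ± 2.0 units (SD over 5 spots, 24.2 to 29.2) against 127 ± 16.9 units (SD over 8 spots, 106 to 153). For this probe 3 LLC spots had been set aside as outliers. Probe 3 gave 32.7 ± 6.66 units (SD over 7 spots, 21.1 to 41.0) against 147 ± 13.1 units (SD over 7 spots, 133 to 173). Probe 4 gave 55.0 ± 5.05 units (SD over 7 spots, 49.4 to 62.4) against 185 ± 16.1 units (SD over 7 spots, 160 to 203). On each of these probes the dimmest MSC+LLC spot was above the brightest LLC spot, with no scaling applied. Without scaling the 3 probes measured on both arrays averaged a log2 ratio of 2.04, or 4.11-fold. After scaling the mean was 5.56, or 47.3-fold (spot SD 0.25), with single probes from 5.28 to 5.72. Probe 1 has no ratio, and its scaled level was at least 65.0-fold higher on MSC+LLC (at least 5.64-fold unscaled), measured against the lowest detected LLC probe at 20.9 units.

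The 5p strand of the same hairpin went the other way in unscaled light. One of its probes gave 930 ± 70.8 units (SD over 14 spots, 785 to 1048) on the LLC array and 527 ± 38.8 units (SD over 15 spots, 455 to 584) on the MSC+LLC array. The other gave 1736 ± 87.3 units (SD over 15 spots, 1573 to 1874) and 1147 ± 112 units (SD over 15 spots, 980 to 1364). Within each probe every LLC spot was above every MSC+LLC spot. The mean unscaled log2 ratio was -0.71, a level 1.63-fold lower on MSC+LLC. Since the array as a whole was dimmer by far more than this, the scaled log2 ratio was 2.82, or 7.05-fold higher (spot SD 0.16), with the probes at 2.71 and 2.93, and the order of the spots turned round.

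The arms of miR-574 thus differed in how far each moved between the arrays. The log2 ratio of the 3p strand exceeded that of the 5p strand by 2.75 (spot SD 0.29), a factor of 6.71. A common scale factor drops out of this difference, so it was the same without scaling and with every spike-in. It was 1.65 with normexp background correction, which adds an offset that pulls faint probes together. With the scanner's own detection flag, which also admits probe 1, it was 3.47. The 3 measured 3p probes could have no scaled log2 ratio below 2.97, 2.73 and 1.98, as fainter MSC+LLC signal would go undetected. For the probe with the limit of 2.97, a ratio at or below the 2.82 of the 5p strand could therefore not have been measured. For the probe with the limit of 2.73, only a ratio slightly below 2.82 could have been. The part of this limit in the difference between the arms was not tested.

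**Figure D1:**
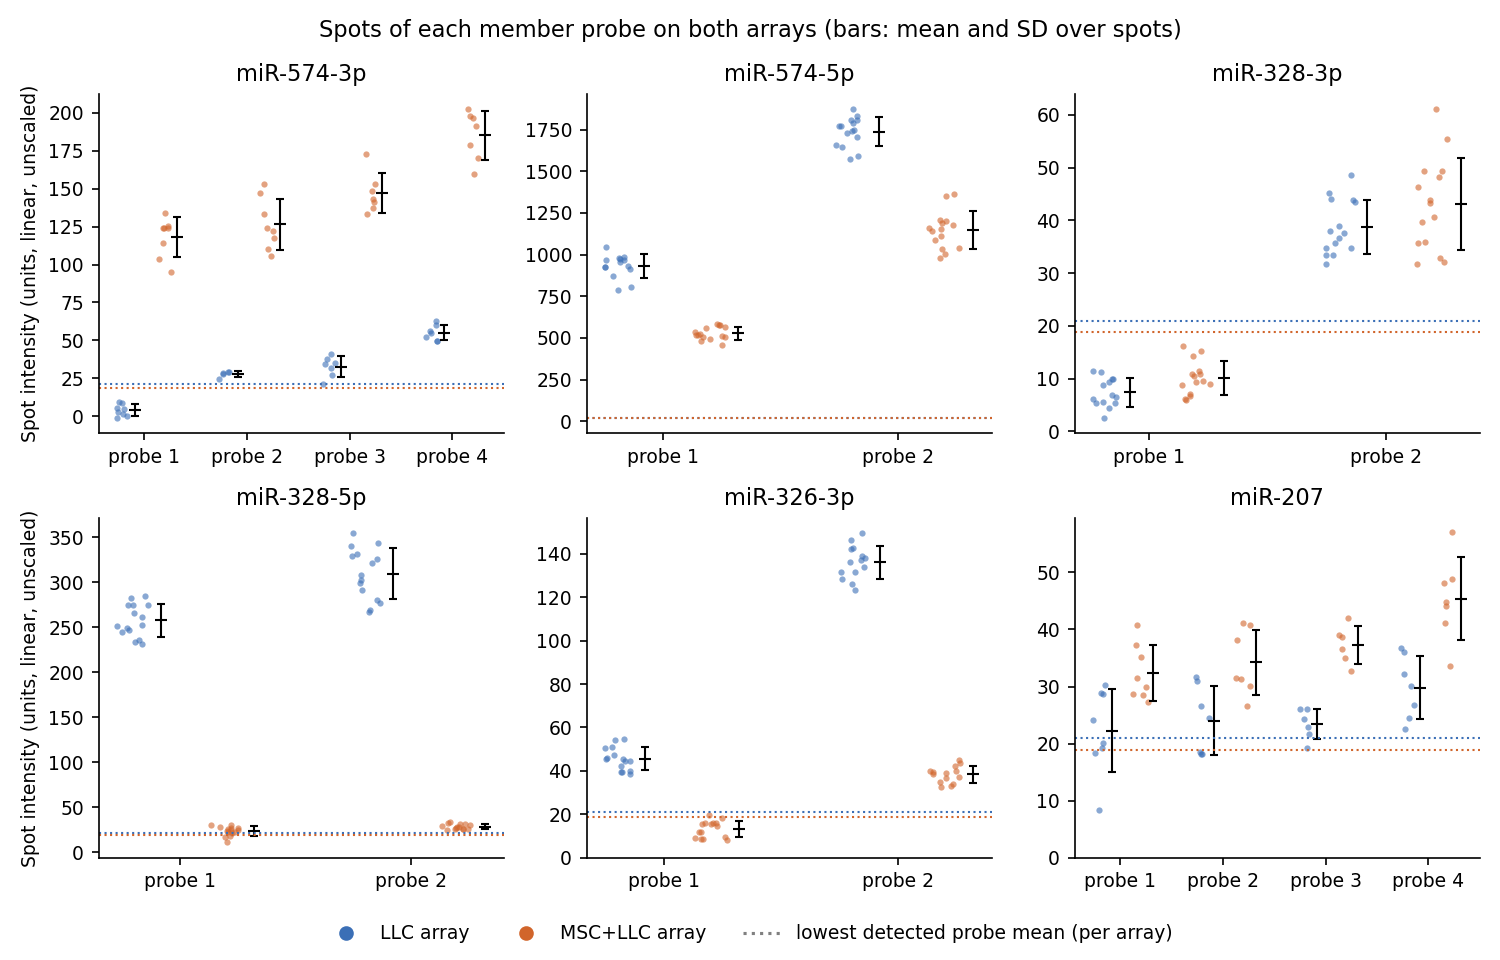
Spot intensities (linear units, unscaled, vertical axis) of every probe of the 6 miRNAs, with LLC spots in blue, MSC+LLC spots in orange, black bars for the mean and SD over spots, and dotted lines at the lowest detected probe of each array (20.9 units for LLC, 18.8 units for MSC+LLC). Within each probe, the MSC+LLC spots of miR-574-3p all lie above the LLC spots. Those of miR-574-5p, miR-328-5p and miR-326-3p all lie below within each probe, and those of miR-328-3p overlap.

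For miR-328 the 3p strand also had the higher ratio, within the limit given below. The brighter 3p probe gave 38.7 ± 5.12 units (SD over 15 spots, 31.8 to 48.6) on the LLC array and 43.1 ± 8.74 units (SD over 15 spots, 31.7 to 61.1) on the MSC+LLC array. These spots overlapped, with 4 of 15 MSC+LLC spots above the brightest LLC spot, and the unscaled log2 ratio of 0.16 (1.11-fold) lay within the spot SD of 0.35. The scaled log2 ratio was 3.68, or 12.8-fold. The other 3p probe, at 7.40 ± 2.71 units (SD over 14 spots) and 10.1 ± 3.19 units (SD over 15 spots), was not well above background on either array, so the ratio of miR-328-3p rests on 1 probe. The scanner's own sum of signal per miRNA gave an unscaled log2 ratio of -0.17 for this strand, below 0.

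For miR-328-5p the unscaled difference was close to that of the array as a whole. One probe gave 257 ± 17.8 units (SD over 15 spots, 231 to 284) for LLC and 23.6 ± 5.21 units (SD over 15 spots, 11.1 to 30.6) for MSC+LLC, where 12 of its spots were well above background. The other gave 309 ± 28.4 units (SD over 15 spots, 267 to 354) and 28.5 ± 2.94 units (SD over 14 spots, 24.6 to 33.5). The unscaled log2 ratio was -3.44, a level 10.9-fold lower on MSC+LLC. The scaled ratio was 0.082 with a spot SD of 0.28, near the median of 0.15 over all measured miRNAs, and 46.2% of those had a lower ratio. The 3p strand exceeded the 5p strand by 3.60 on the log2 scale (spot SD 0.44), a factor of 12.1, and by 1.95 with normexp. A measuring limit fixed the direction of this difference. The 3p probe could have no scaled log2 ratio below 2.48, far above the 0.082 of the 5p strand. Nothing is therefore read from the difference.

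miR-326-3p lay between these patterns. Its brighter probe gave 136 ± 7.61 units (SD over 14 spots, 123 to 149) on the LLC array and 38.3 ± 3.76 units (SD over 14 spots, 32.7 to 45.1) on the MSC+LLC array. That is 3.55-fold dimmer without scaling, with no overlap of spots. The scaled log2 ratio was 1.70, or 3.24-fold higher (spot SD 0.16). The dimmer probe gave 45.6 ± 5.25 units (SD over 15 spots, 38.5 to 54.8) and 13.2 ± 3.78 units (SD over 15 spots, 8.23 to 19.5). With 1 of 15 spots well above background on MSC+LLC it had no ratio there, and miR-326-3p too rests on 1 probe. The other arm, miR-326-5p, was not detected on either array.

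miR-207 was faint on both arrays. In the order of MSC+LLC intensity, its probe 1 gave 22.2 ± 7.28 units (SD over 8 spots, 8.44 to 30.2) for LLC, with 4 spots well above background and so not detected, and 32.4 ± 4.86 units (SD over 8 spots, 27.2 to 40.8) for MSC+LLC. The other 3 probes gave LLC means of 24.0, 23.4 and 29.8 units and MSC+LLC means of 34.2, 37.3 and 45.4 units, in that order. On the probe with means of 23.4 and 37.3 units 6 of 8 spots were kept per array, and these did not overlap. On the other 3 probes the spots overlapped. The probes at 23.4 and 24.0 units on LLC had 4 of 6 and 4 of 7 kept spots well above background. Their means lay close to the lowest detected LLC probe at 20.9 units. The mean of each miR-207 probe was higher on MSC+LLC before scaling, by 10.2 to 15.6 units, while the mean of the negative control spots was higher there by 1.86 units. The unscaled log2 ratio was 0.60, or 1.51-fold, and the scaled one 4.12, or 17.4-fold (spot SD 0.34), with probes from 4.04 to 4.20. Probe 1 was at least 16.8-fold higher after scaling and at least 1.46-fold higher without it. The array held no other arm of this hairpin.

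The height of the ratios of miR-574-3p, miR-207 and miR-328-3p is partly fixed by what can be measured. A probe that was faint on the LLC array could have a ratio only if it stayed above the 18.8 units of the lowest detected probe on the much dimmer MSC+LLC array. At the LLC intensity of probe 4 of miR-574-3p, 55.0 units, the lowest scaled log2 ratio that could be measured was 1.98. For the measured probes of miR-207 this limit lay between 2.86 and 3.21, and for the miR-328-3p probe at 2.48. Of the 29 probes at or below 55.0 units on LLC that were measured on both arrays, 7 belonged to these 3 miRNAs. The 22 others, from 15 miRNAs, were all at least 2-fold higher after scaling, with a median log2 ratio of 4.12 and a range of 2.14 to 6.74. A high scaled ratio was thus common to faint LLC probes. For the bright strand miR-574-5p the limits were -2.10 and -3.0, and for miR-328-5p -0.25 and -0.51, so ratios well below 0 could have been measured for miR-574-5p and slightly below 0 for miR-328-5p. For the measured probe of miR-326-3p the limit was 0.67.

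Brightness without scaling is free of the scale factor, though not of this limit. Across all probes measured on both arrays, 7 of the 12 probes of the 6 miRNAs were brighter on MSC+LLC, and 19 of the 393 others. Those 7 were the measured probes of miR-574-3p, miR-207 and miR-328-3p, all faint on LLC. At the level of miRNAs, 3 of the 6 were brighter unscaled, where 5.83% of the 240 were, and 1 was at least 2-fold brighter, where 3.33% were. That miRNA was miR-574-3p. The 6 miRNAs were chosen on this contrast and their faint probes could be measured only if high, so nothing is read from these counts. By scaled ratio miR-574-3p ranked 7, miR-207 10, miR-328-3p 13, miR-574-5p 18, miR-326-3p 44 and miR-328-5p 129 among the 240.

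**Figure D2:**
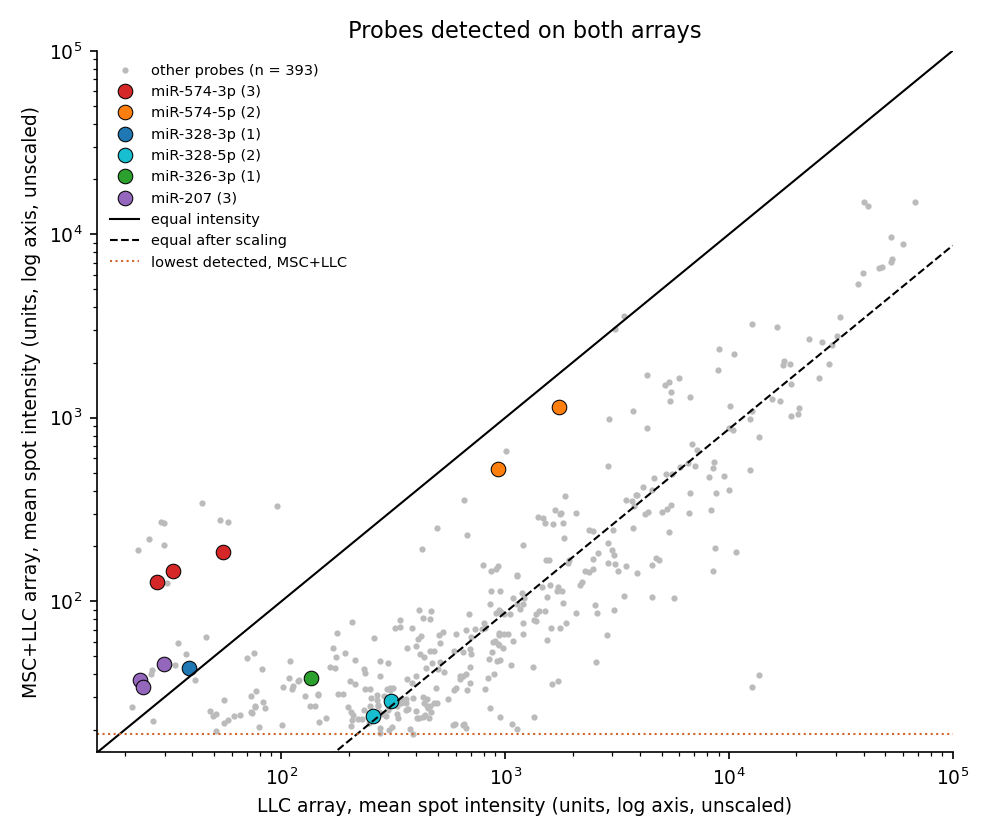
Mean intensity of each probe detected on both arrays, LLC on the horizontal and MSC+LLC on the vertical axis (unscaled units, log axes), with 393 other probes in grey and the probes of the 6 miRNAs in colour. The solid line marks equal intensity, the dashed line equal scaled level and the dotted line the lowest detected MSC+LLC probe at 18.8 units. The probes of miR-574-3p, miR-207 and miR-328-3p lie above the solid line at the faint end, those of miR-574-5p between the lines, and those of miR-328-5p on the dashed line.

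The direction of several ratios depended on the scale factor. Over 16 other ways of processing, miR-574-3p stayed above 0 and at least 2-fold higher in all 16, with log2 ratios from 2.0 with hybridization spike-ins to 6.15 with the scanner's detection flag. miR-207 and miR-328-3p stayed above 0 in all 16 and were at least 2-fold higher in 14 and 13. For miR-328-3p the values with hybridization spike-ins (0.12) and without scaling (0.16) were smaller than its spot SD of 0.35. miR-574-5p was above 0 in 13 and miR-326-3p in 12. miR-328-5p was above 0 in 7 of the 16, with a range of -3.48 to 1.25, and was at least 2-fold higher in 1, normexp. miR-574-5p was below 0 without scaling, with hybridization spike-ins and with all spike-ins, and miR-326-3p also with labelling spike-ins. The order of the 6 miRNAs was the same in each of them, and 5 of the 6 lay above the median of all measured miRNAs, with all 6 above it under normexp. The 6 settings that change the scale factor alone shift all miRNAs together and cannot change an order.

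**Figure D3:**
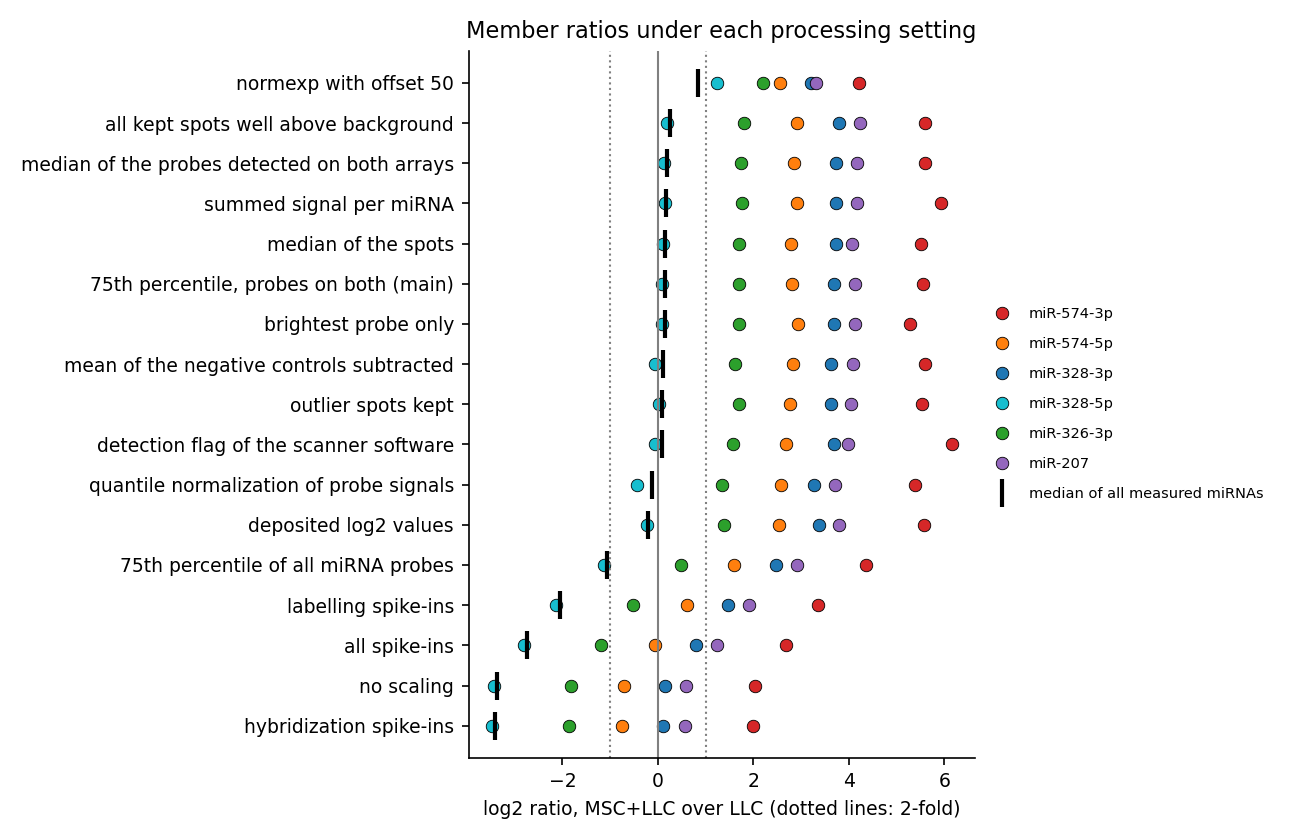
Log2 ratios of MSC+LLC over LLC (horizontal axis, dotted lines at 2-fold) of the 6 miRNAs under the scaling by the 75th percentile and 16 other settings, one row each, with a black bar for the median of all measured miRNAs. The colours keep their order from miR-574-3p on the right to miR-328-5p on the left in every row, while the whole pattern slides across 0.

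The deposited log2 table gave the same order. Its value for miR-574-3p was -3.13 for LLC and 2.44 for MSC+LLC, a difference of 5.57. The differences were 3.8 for miR-207, 3.37 for miR-328-3p, 2.54 for miR-574-5p, 1.39 for miR-326-3p and -0.23 for miR-328-5p. These values are log2 of the scanner's summed signal per miRNA minus a constant for each array, 7.02 for LLC and 3.48 for MSC+LLC, so they hold a scale factor of nearly the same size.

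The miRNAs with the closest ratios were looked up on each side. miR-574-3p lay between miR-466h-3p at 5.61 and miR-466g at 5.56, and miR-207 between miR-467a-3p at 4.17 and miR-877-3p at 4.09. miR-328-3p lay between miR-6923-3p at 3.84 and miR-466i-5p at 3.56, and miR-574-5p between miR-183-5p at 3.00 and miR-3082-5p at 2.72. The miR-466 and miR-467 families hold near-identical copies, so their values are uncertain for a single strand. miR-326-3p lay between miR-6769b-5p at 1.71 and miR-370-3p at 1.69, and miR-328-5p between miR-6898-5p at 0.089 and miR-486a-3p at 0.072, each closer to the member than its spot SD.

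Array miRNAs that share long runs of bases with the miR-574 strands were compared next. The longest runs are set in capitals, first for miR-574-3p with miR-466q (9 bases) and then for miR-574-5p with miR-3082-5p (12 bases).
miR-574-3p: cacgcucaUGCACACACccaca
miR-466q: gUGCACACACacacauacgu
miR-574-5p: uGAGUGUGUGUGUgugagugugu
miR-3082-5p: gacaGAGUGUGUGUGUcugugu
miR-466q had a scaled log2 ratio of 6.74 on 1 probe and was brighter on MSC+LLC unscaled as well, by 3.21. miR-467f, 1 of 5 strands that share 8 bases with miR-574-3p, was at 6.50. Both lay above the 5.56 of miR-574-3p. Also tied at 9 bases was miR-329-3p, which was detected on neither array. miR-3082-5p was at 2.72 and miR-1187, sharing 11 bases with miR-574-5p, at 2.52. Another GU-rich strand, miR-32-3p, shared 10 bases and was at 2.27. Each of these 3 was dimmer on MSC+LLC unscaled, as was miR-574-5p. Probes against such repeats may bind more than 1 strand, and their specificity was not tested.

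The repeats were then counted on the array, among the 1608 miRNAs with a RefSeq sequence and in the strand as given. The letters CACACAC stood in 5 (0.311%), of which 4 were measured on both arrays. Their scaled log2 ratios ran from 5.56 for miR-574-3p to 6.74. The fifth was detected on MSC+LLC alone. The letters GUGUGUG stood in 10 (0.622%), of which 6 were measured, at 1.07 to 2.82, with miR-574-5p the highest, and 2 were detected on LLC alone. The CA-repeat strands were subject to the measuring limit for faint probes. The brightest LLC probe of miR-466q read 29.0 units and that of miR-467f 43.9 units, and at or below 55.0 units no scaled log2 ratio under 1.98 could be measured. Nothing is therefore read from the gap between the CA and GU ranges. The letters were picked after the values were seen, and these strands overlap in sequence, so they are not independent.

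None of the strands looked up for shared runs with miR-326-3p and miR-207 was measured on both arrays, so no ratios could be set side by side. miR-7047-3p, which shares 10 bases with miR-326-3p, was detected on MSC+LLC alone, at least 14.9-fold higher after scaling, and miR-7088-3p, with a run as long, was detected on neither array. Among the 1608 array miRNAs with a sequence, the seeds of the 4 strands in RefSeq recurred once, in miR-330-5p, which has the seed of miR-326-3p. It was detected on neither array, its brightest probe giving -0.20 units for LLC and -0.66 units for MSC+LLC. The seeds are in capitals.
miR-326-3p: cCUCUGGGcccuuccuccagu
miR-330-5p: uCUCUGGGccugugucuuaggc
For miR-207 the strands looked up were miR-7062-3p (11 bases) and, from 3 that share 10 bases, miR-344f-5p and miR-485-3p. They were detected on neither array. Strands with at least 75% C or U made up 6.90% of the array miRNAs with a sequence. Those measured on both arrays were 6, with ratios of 0.77 for miR-1249-3p, 1.70 for miR-326-3p, 2.16 for miR-7082-3p, 3.33 for miR-483-3p, 4.09 for miR-877-3p and 4.12 for miR-207.

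Among the miRNAs measured on both arrays, the shares of C and A moved with the ratio by rank correlation, those of G and U hardly. Of the 240 measured on both arrays, 197 had a sequence. The median share of C was 31.8% in the 41 that were at least 2-fold higher on MSC+LLC, 19.0% in the 133 within 2-fold and 13% in the 23 at least 2-fold lower. The median share of A went the opposite way, at 14.3%, 27.3% and 30.4%. In the same order of sets, the median share of G was 23.8%, 31.8% and 30.4%, and that of U 27.3%, 18.2% and 31.8%. Over the 197 the correlation of the scaled ratio with the share of C was 0.38 (Spearman's rho, Pearson's r 0.46), and with the share of A -0.35 (Pearson's r -0.19). For G rho was -0.068 and for U -0.047. Pearson's r was -0.20 for G, about the same as for A, and -0.036 for U. Without miR-574-3p, miR-574-5p, miR-326-3p and miR-207 the rho values for C and A were 0.37 and -0.34. The points share the same pair of arrays and many share repeats. A miRNA that was faint on the LLC array could enter only with a high ratio, as miR-574-3p and miR-207 did. The part of this limit in the correlations was not tested, and nothing is read from them. miR-574-3p, miR-326-3p and miR-207, at 47.6% to 52.2% C, stood at the C-rich end. miR-574-5p, with no C, did not follow the relation.

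**Figure D4:**
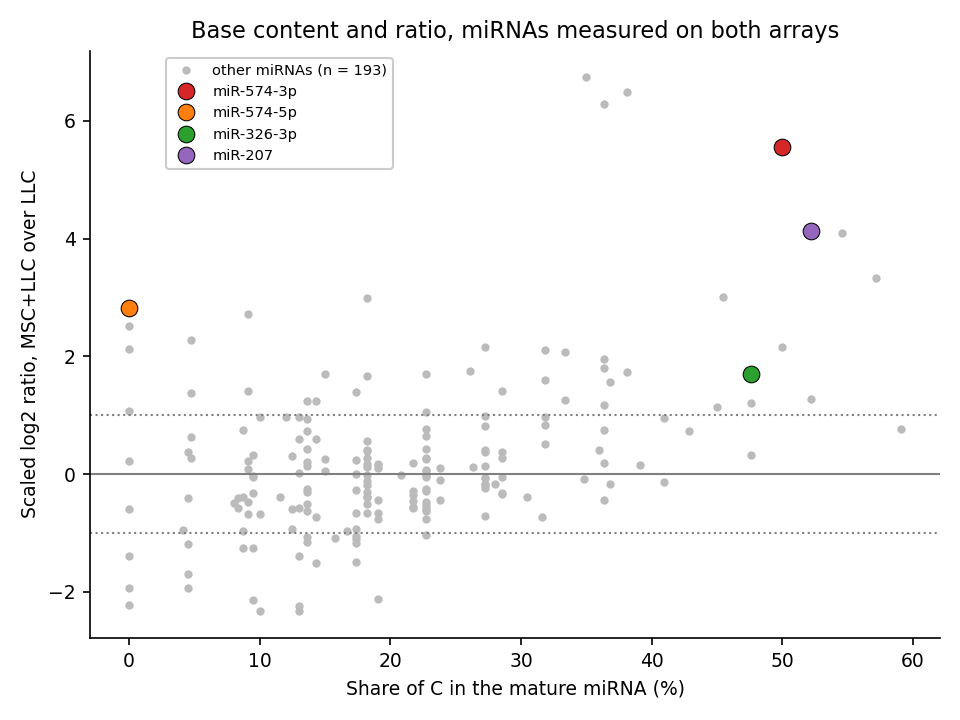
Share of C in the mature strand (horizontal axis, %) against the scaled log2 ratio of MSC+LLC over LLC (vertical axis, dotted lines at 2-fold) for the 197 miRNAs measured on both arrays that have a RefSeq sequence, with miR-574-3p, miR-574-5p, miR-326-3p and miR-207 in colour and the others in grey. miR-207, miR-574-3p and miR-326-3p lie toward the C-rich end, and miR-574-5p lies high at no C.

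The study names miR-574-3p, miR-574-5p, miR-328-3p and miR-326-3p among miRNAs raised in exosomes of hypoxic BMSCs. Its other named miRNAs had lower scaled ratios here, except miR-5100 at 1.74 (spot SD 0.27), close to miR-326-3p at 1.70. miR-210-3p, a classic hypoxia miRNA, was at 0.27 (SD 0.088), miR-193a-3p at 0.84 (SD 0.20), miR-146a-5p at 0.13 (SD 0.20) and miR-25-3p at -0.19 (SD 0.27). miR-652-3p was detected on LLC alone. Of the miRNAs it names as lowered, miR-5112 was at -0.34 (SD 0.37), and neither array detected miR-6995-3p or miR-6404. The study drew some of these names partly from these arrays, so they form no independent list.

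Markers of cells that could feed vesicles into blood were set beside these ratios. Of 8 mesenchymal stromal miRNAs, 5 were measured on both arrays, with scaled log2 ratios from -0.56 to 0.97 and a median of 0.57. miR-143-3p was detected on LLC alone, and miR-145a-5p and miR-199a-5p on neither array. The 4 erythroid miRNAs ran from -2.33 to 1.66, with 2 past 2-fold upward and 2 downward. Their summed signal, from the scanner's own sums without scaling, was 43335 units for LLC and 5960 units for MSC+LLC. The leukocyte and platelet miRNAs, 3 of 5 measured, ran from -2.25 to 0.14, with summed signals of 8283 and 565 units. Hepatocyte miRNAs, 2 of 3 measured, lay at -0.32 and 0.78, with summed signals of 1903 and 126 units. The stromal sums were 3439 and 292 units. The measured blood, liver and stromal miRNAs lay below the ratios of miR-574-3p, miR-207, miR-328-3p and miR-574-5p, and their part in those ratios was not tested. Those strands were picked for high ratios, and the first 3 could be measured only if high. Nothing is therefore read from this order.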

How the data were processed

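Exosomal RNA of 1 LLC and 1 MSC+LLC sample was read on 1-colour (Cy3) Agilent mouse miRNA arrays, with groups as the sample titles give them. The deposited scanner files hold background-subtracted spot intensity from Feature Extraction (version 11.5.1.1 in the headers and 10.7 in the submitters' processing notes), not scaled between arrays. The deposited log2 table was made by the authors with GeneSpring GX, settings not given in the sources used here. Control spots and outlier spots (3.04% for LLC and 2.95% for MSC+LLC) were left out, and no spot was saturated. Spots were averaged per probe, every array was scaled to its 75th percentile over probes that both arrays detected, and log2 ratios were averaged over the probes of a miRNA detected on both. The spot SD combines the coefficients of variation of both arrays. Where 1 array detected a probe, the bound was set against the other array's own signal or its lowest detected probe, whichever was higher. With 1 array per group no p-value is given, and the number of arrays limits the precision.

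The miRNAs and lists were chosen with earlier results of these data known. Named besides them were other arms, equal seeds, the longest shared runs, nearest ratios, the study's named miRNAs and cell markers. Alternatives were 7 scalings, normexp (offset 50, on the median pixel signal), outlier spots kept, spot medians, other probe summaries, other detection calls, the deposited values, fold thresholds of 4 and 1.5, and, chosen after seeing the data, subtraction of the negative controls. The functions were tested on simulated data. Python 3.11.15 (numpy 2.4.6, pandas 2.3.3, scipy 1.17.1, matplotlib 3.10.9) and R 4.3.3 (limma 3.58.1) were used.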

Additional observations from a re-analysis of the deposited data

How the results depend on the processing

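The choice of scale factor moved most values. The number of the 6 miRNAs at least 2-fold higher, 5 as reported, was 3 when labelling spike-ins set the scale, 2 when all spike-ins did, 1 with hybridization spike-ins or no scaling, and 6 with normexp. The median log2 ratio of the 6, 3.25, was 2.03 when the 75th percentile ran over all probes, 1.04 by the labelling spike-ins, 0.36 by all spike-ins, -0.31 by the hybridization spike-ins and -0.28 unscaled. It was 2.95 in the deposited values, 2.93 after quantile normalization and 2.88 with normexp. The ratio of miR-574-5p turned to -0.069 by all spike-ins, -0.75 by the hybridization spike-ins and -0.71 unscaled. That of miR-326-3p turned to -0.51 by the labelling spike-ins, -1.19 by all spike-ins, -1.87 by the hybridization spike-ins and -1.83 unscaled. Of all measured miRNAs, 65 were at least 2-fold higher, against 27 with the percentile over all probes, 15 by the labelling spike-ins, 11 by all spike-ins, 8 with hybridization spike-ins or no scaling, 111 with normexp and 35 past a 4-fold threshold. All 6 were detected on each array under every setting. No paired analysis was possible because there was 1 array per group, and no replicate could be left out. Probes fainter than the dimmer array's detection limit have no ratio, so faint strands could be followed upward but hardly downward.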
